A study of Homo sapiens with 8 samples.

Results

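The SAM system and dCas9-VPR were compared in HEK293T cells, an established human embryonic kidney line, with 2 RNA-seq libraries for each system out of 8 in the series. These 4 libraries were chosen by their labels. In the SAM system, dCas9 fused to VP64 was transfected together with MCP-p65-HSF1, a phage MS2 coat protein that carries the p65 and HSF1 activation domains, and the gRNAs were labelled as MS2 gRNAs. In dCas9-VPR, the VP64, p65 and Rta domains were fused directly to dCas9, and the gRNAs carried no MS2 label. Every group received 125 ng of a pool of 4 gRNA plasmids against the *HBG1*/*HBG2* promoters. The SAM group further received 187.5 ng each of the dCas9-VP64 and MCP-p65-HSF1 plasmids, and the dCas9-VPR group received 375 ng of its single plasmid. RNA was taken at 72 h post-transfection. The control group was used for levels, for differences from the control and for the estimate of spread. It received dCas9 and MCP-mCherry, 187.5 ng of each plasmid, with gRNAs against the same promoters. In plasmid masses and the MCP part the control was matched to SAM, but not to dCas9-VPR. Effects of this mismatch cannot be told apart from other differences between dCas9-VPR and the control. CRISPR-DREAM, the remaining group of 2 libraries, recruited a different effector through MCP.

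CRISPR activators bring transcriptional activation domains to a promoter through a catalytically inactive Cas9 and a gRNA. VP64 is a tandem repeat of a herpesvirus VP16 segment, p65 is the RELA subunit of NF-kB, HSF1 is the master regulator of the heat shock response and Rta is a gammaherpesvirus transactivator. Both systems hold VP64 and p65 parts. They differ at the same time in the HSF1 or Rta part, in recruitment through an RNA hairpin or by direct fusion, in the gRNA scaffold and in the mass of plasmid per component, and the effects of these differences cannot be told apart in this design. In bulk RNA, fewer activated cells and less RNA per cell also cannot be told apart.

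Estimated depth was 31.2 to 35.2 M reads (M, 1e6) in the 4 libraries, and expression is given as CPM, read counts scaled to a common library total. The SAM libraries held 14861 and 14857 genes at 1 CPM or more, and the dCas9-VPR libraries held 14269 and 14193. Between 151 and 318 genes were listed at 0 per library, with the fewer in the SAM libraries at 156 and 151. A count of 3 reads corresponded to 0.0853 to 0.0963 CPM, and this limit covers counting error only. Of the marker lists, 7 of 7 HEK293T genes in the files passed the filter on low values. So did 3 of 3 leukocyte, 2 of 3 endothelial, 3 of 6 fibroblast and 2 of 6 erythroid genes. Passing the filter thus does not set HEK293T markers apart from those of other cell types. The labels do not say whether replicates came from separate cultures, so the p-values may measure technical spread only.

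At the targeted locus, the *HBG2* transcript level was 3.73-fold higher with SAM than with dCas9-VPR. *HBG2* and *HBG1* encode the gamma-globin chains of fetal haemoglobin and are nearly identical in sequence. The *HBG2* gene model, on chromosome 11 from 5253188 to 5505606 in hg38, was at 707 and 860 CPM with SAM and at 218 and 201 CPM with dCas9-VPR. The control libraries held 1.29 and 0.838 CPM, so all 4 activator libraries lay far above the control, and both SAM libraries lay above both dCas9-VPR libraries. On the log2(CPM + 0.5) scale, SAM exceeded dCas9-VPR by 1.89 (SE 0.17, limma adjusted p = 4.86e-04). With median-of-ratios scaling, which sets the typical gene to the same level in every library, it was 1.76 (limma adjusted p = 5.03e-04). Tested against a fold change of 2 in place of 0 change, *HBG2* did not pass (limma adjusted p = 0.304).

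*HBG1*, on chromosome 11 from 5248269 to 5249858, was much lower in all activator libraries. It was at 2.56 and 3.33 CPM with SAM and at 0.385 and 0.548 CPM with dCas9-VPR, and it was listed at 0 in both control libraries. SAM exceeded dCas9-VPR by 1.83 in log2 units (SE 0.24, limma adjusted p = 6.25e-04). *AC104389.6* is a gene model from 5248270 to 5254784 that spans *HBG1* and overlaps *HBG2*. It was at 533 and 665 CPM with SAM and at 187 and 167 CPM with dCas9-VPR, a difference of 1.75 in log2 units (SE 0.18, limma adjusted p = 6.77e-04). Against a fold change of 2, neither *HBG1* (limma adjusted p = 0.994) nor *AC104389.6* (limma adjusted p = 0.787) passed. Because the 3 models overlap and the paralogs share sequence, the assignment of reads among them is uncertain, and their sum is the safer quantity. The sum was 1385 ± 202 CPM (SD, n = 2) with SAM and 387.5 ± 25.9 CPM with dCas9-VPR, a ratio of 3.57. Within this sum, *HBG2* took 56.6% ± 0.452 with SAM and 54.2% ± 0.507 with dCas9-VPR, and *HBG1* took 0.212% ± 0.00846 and 0.122% ± 0.0379.

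Other genes named in the cluster were below 1 CPM with SAM and with dCas9-VPR. *HBE1*, which encodes embryonic epsilon-globin, was at 0.4 and 0.881 CPM with SAM and at 0.372 and 0.449 CPM with dCas9-VPR (log2 fold change 0.29, limma adjusted p = 0.433), and the groups overlapped. *HBBP1*, a globin pseudogene named after its values were seen, was at 0.372 and 0.597 CPM with SAM and at 0.086 and 0.0964 CPM with dCas9-VPR. Its log2 fold change was 0.73 (limma adjusted p = 0.0487, or 0.0709 with median-of-ratios scaling). *BGLT3*, a long noncoding RNA beside *HBG1* also named after its values were seen, was at 0.315 and 0.455 CPM with SAM and at 0.0287 and 0.0322 CPM with dCas9-VPR, the latter below 3 reads, and was not tested.

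**Figure D1:**
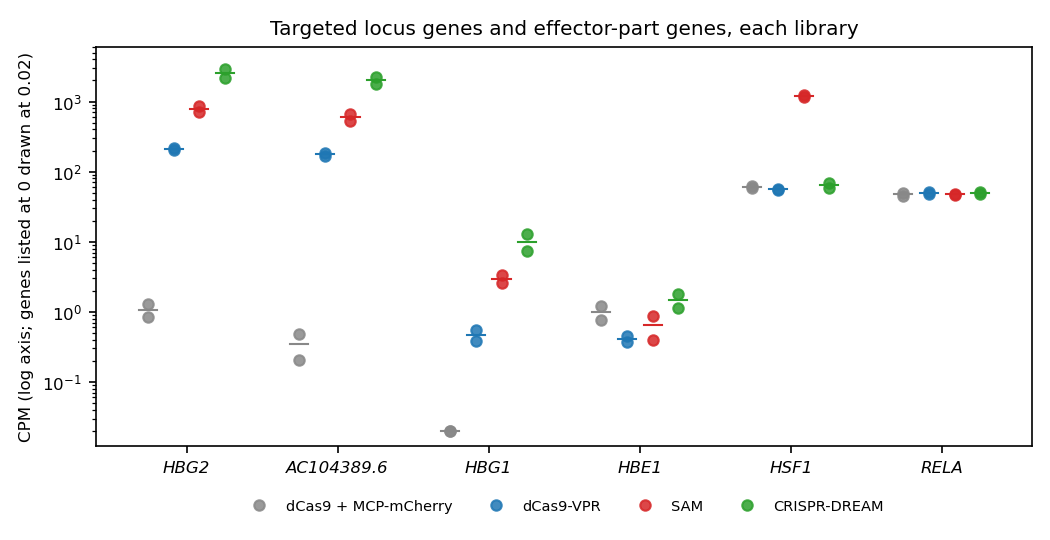
CPM on a log axis of 4 genes of the targeted locus and of the *HSF1* and *RELA* genes, 1 point per library and a bar at the mean, in the control, dCas9-VPR, SAM and CRISPR-DREAM groups. The SAM points lie above the dCas9-VPR points for *HBG2*, *AC104389.6*, *HBG1* and *HSF1*, whereas *RELA* lies between 45.4 and 51.2 CPM in all 8 libraries.

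Among the genes behind the effector parts, *HSF1* showed the widest difference of the comparison. It was at 1173 and 1230 CPM with SAM, at 54.9 and 56.6 CPM with dCas9-VPR and at 61.6 and 58 CPM in the control. This was a difference of 4.42 in log2 units (SE 0.07, limma adjusted p = 2.32e-10), or 4.29 with median-of-ratios scaling. The SAM plasmid carries an *HSF1* segment, and CPM values do not separate its reads from those of the endogenous gene. *RELA*, whose p65 part is in both systems, was at 47.1 and 48.1 CPM with SAM and at 48.5 and 51 CPM with dCas9-VPR. The difference was -0.06 in log2 units (SE 0.07, limma adjusted p = 0.535), and -0.19 with median-of-ratios scaling (limma adjusted p = 0.0475).

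Across the transcriptome, genes past a fold change of 2 at a false discovery rate (FDR) below 0.05 were nearly all higher with SAM. Of 15122 genes tested, 342 were past this threshold on the high side, or 2.26%, and 6 on the low side, or 0.0397%. With median-of-ratios scaling the counts were 250 (1.65%) and 11 (0.0727%), and 250 and 6 genes were past the threshold in the same direction with both scalings. Of the 342 genes, 172 were below 3 CPM in both groups, a share of 50.3% against 15.9% of all genes tested. A further property of the filter was that 68 of the 342 reached 1 CPM only in the 2 SAM libraries, so these had to be high there to be tested at all. The 68 leave out genes that reached 1 CPM in 1 other library besides, such as *BIRC3* and *TXLNB*, and likewise passed only through SAM. At 30 CPM and above, 7 genes were past the threshold with plain CPM, and 4 of them with both scalings.

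The direction of small changes depended on the scaling. The median log2 fold change over all genes tested was 0.10 with plain CPM and -0.02 with median-of-ratios scaling, so the scaling moved the typical gene from higher with SAM to near 0. At an FDR below 0.05 with no fold change limit, 3565 genes (23.6%) were higher and 955 (6.32%) lower with SAM in plain CPM. With median-of-ratios scaling, 2068 (13.7%) were higher and 2424 (16.0%) lower. The share of genes higher with SAM fell with expression level. Below 3 CPM, 74.3% of genes were higher with SAM in plain CPM and 65.8% with median-of-ratios scaling, whereas at 100 CPM and above the shares were 48.7% and 22.7%. Counts of list members at an FDR below 0.05 are therefore given in both scalings, and are read against these shares of all genes. The shares were not matched for expression level, and genes at 100 CPM and above were less often higher with SAM.

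**Figure D2:**
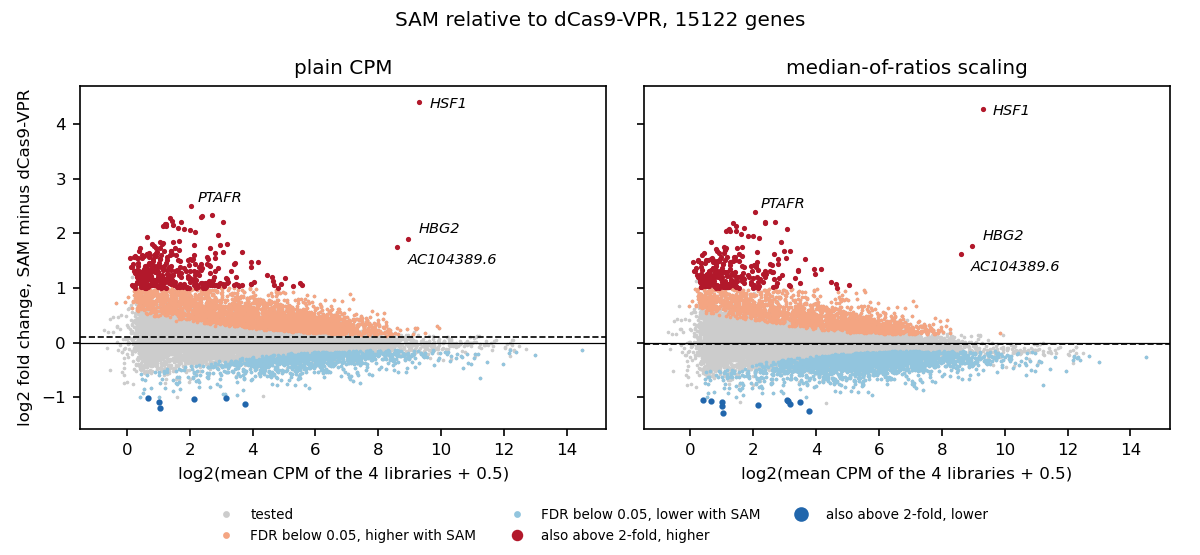
Log2 fold change of SAM minus dCas9-VPR against the log2 mean CPM of the 4 libraries for 15122 genes, in plain CPM (left) and with median-of-ratios scaling (right), with the median of all genes as a dashed line. Most of the 342 genes past the threshold in plain CPM sit at the low end of expression, and *HSF1*, *HBG2* and *AC104389.6* stand apart at high expression.

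The 342 genes higher with SAM had a median of 2.99 CPM with SAM, 0.85 CPM with dCas9-VPR and 1.01 CPM in the control. Their median log2 fold change was 1.23 for SAM over the control and -0.06 for dCas9-VPR over the control, comparisons that share libraries with the one that chose the genes. In the CRISPR-DREAM libraries, which were not part of the contrast that chose the genes, both libraries were above both control libraries for 239 of the 342 genes, or 69.9%, against 38.3% of all genes tested. The median log2 fold change of CRISPR-DREAM over the control was 0.48 for these genes and 0.06 for all genes. These values were not matched for expression level. Of the 342 genes, 50.3% were below 3 CPM with SAM and with dCas9-VPR, against 15.9% of all genes. The 342 also include the 68 genes that passed the filter through the SAM libraries alone. Protein-coding genes made up 260 of the 342 (76%, against 87.6% of all tested) and long noncoding RNAs 68 (19.9%, against 7.76%). The median exonic length was 3876 bases for the 297 with a Gencode release 44 entry and 5259 bases for all genes.

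Besides *HSF1*, the 11 genes with the widest rise with SAM at 3 CPM or more were, other than *RDH12* and *TCEAL7*, below 10 CPM in the SAM libraries. *PTAFR*, the receptor for platelet-activating factor, was at 5.92 and 7.19 CPM with SAM and at 0.687 and 0.802 CPM with dCas9-VPR (log2 fold change 2.50, SE 0.17, limma adjusted p = 4.73e-05). *RDH12* and *ALDH1A1*, enzymes of retinoid metabolism, were among them. *RDH12* was at 9.49 and 11.2 CPM with SAM and at 1.35 and 1.99 CPM with dCas9-VPR, and *ALDH1A1* was at 6.97 and 9.3 CPM and at 1.14 and 1.32 CPM. The control libraries held 1.08 and 1.72 CPM of *RDH12* and 1.02 and 0.946 CPM of *ALDH1A1*, far nearer to dCas9-VPR than to SAM. *LIPH*, which encodes the phospholipase lipase H, was at 8.15 and 8.19 CPM with SAM and at 1.17 and 1.28 CPM with dCas9-VPR (log2 fold change 2.33, SE 0.13, limma adjusted p = 3.1e-05).

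The rest of this group ranged from 2.15 to 2.29 in log2 fold change. *SOX30*, a transcription factor of spermatogenesis, was at 5.29 and 4.46 CPM with SAM and at 0.83 and 0.513 CPM with dCas9-VPR. *GJA5*, which encodes the gap junction protein connexin 40, was at 3.46 and 4.49 CPM against 0.377 and 0.642 CPM. *TCEAL7* was at 15.1 and 11.5 CPM with SAM and at 2.6 and 2.34 CPM with dCas9-VPR, and its CRISPR-DREAM libraries, at 13.4 and 10.5 CPM, overlapped those of SAM. *IPCEF1*, *TXLNB* and the clone-named *AL445524.2* and *AC007448.5* were at 2.63 to 4.58 CPM with SAM and at 0.257 to 0.497 CPM with dCas9-VPR. *AL445524.2* overlaps *EGLN1* and *TSNAX*, *AC007448.5* overlaps *HELZ* and *RDH12* overlaps *ZFYVE26*, so reads of overlapping genes may contribute to these 3. *AC007448.5* reached 1 CPM in the SAM libraries alone, and *TXLNB* in these and 1 CRISPR-DREAM library. Both were thus tested only because they were high with SAM.

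The 6 genes lower with SAM past the threshold were *AC010616.1*, *LGALS1*, *CEL*, *NECTIN4*, *BST2* and *ELF3*, and all 6 were past it with both scalings. *LGALS1*, which encodes the secreted lectin galectin-1, was at 7.52 and 8.67 CPM with SAM, at 18.5 and 18 CPM with dCas9-VPR and at 12.3 and 15.5 CPM in the control (log2 fold change -1.13, SE 0.145, limma adjusted p = 5.81e-04). The control thus lay between the 2 systems. *NECTIN4*, a cell adhesion protein, was at 2.89 and 1.91 CPM with SAM and at 6.55 and 4.3 CPM with dCas9-VPR, which overlapped the control at 6.16 and 5.18 CPM. For *BST2*, the interferon-induced antiviral factor tetherin, the reverse held, with SAM at 5.43 and 5.49 CPM near the control at 6.19 and 5.44 CPM and dCas9-VPR at 12.2 and 10.7 CPM. *ELF3*, an epithelial ETS factor, was likewise at 0.402 and 0.711 CPM with SAM, at 1.46 and 1.75 CPM with dCas9-VPR and at 0.447 and 0.424 CPM in the control. *CEL*, a lipase of the pancreas, and *AC010616.1* were below 3 CPM in every SAM and dCas9-VPR library. Of these 6 genes, only *LGALS1* remained past the threshold with a pseudocount of 1 and when any 1 of the 4 libraries was left out. Each of the other 5 lost the call without at least 1 SAM and at least 1 dCas9-VPR library. Without dCas9-VPR replicate 1, the log2 fold change was -0.75 for *NECTIN4*, -0.92 for *BST2* and -0.87 for *CEL*. Without SAM replicate 1 it was -0.79 for *ELF3*, and without SAM replicate 2 it was -1.02 for *AC010616.1*, which no longer passed the FDR limit.

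**Figure D3:**
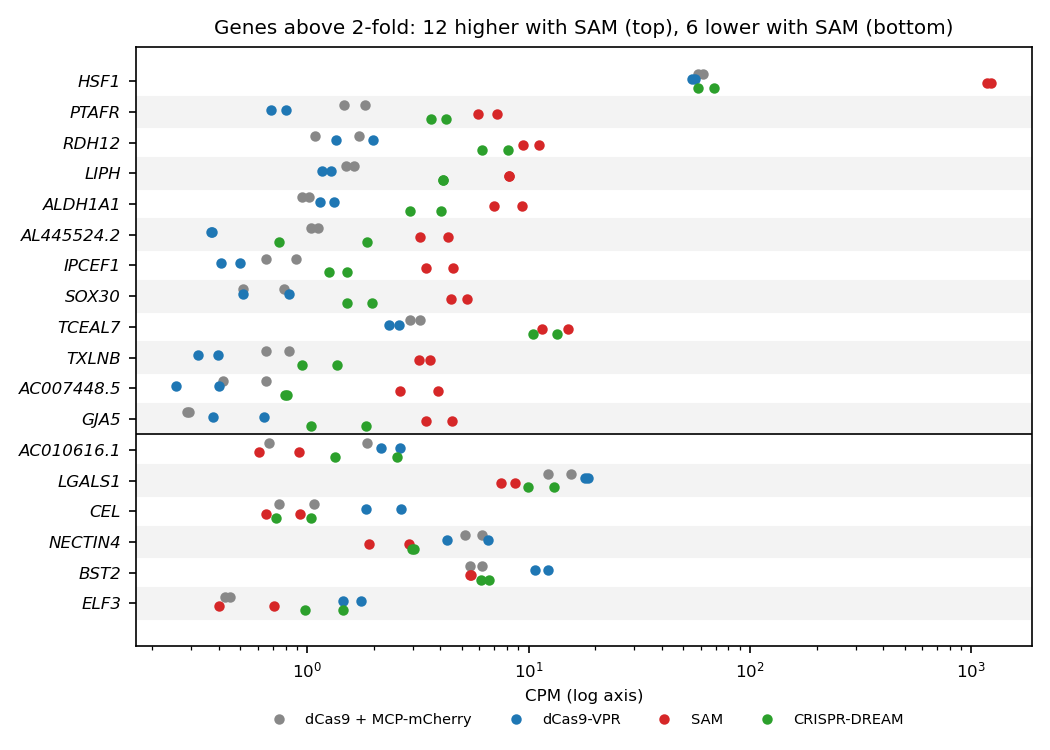
CPM on a log axis in each library for the 12 genes with the widest rise with SAM (upper rows) and the 6 genes past the threshold on the low side (lower rows). SAM and dCas9-VPR points do not overlap in any of the rows, and for *BST2*, *CEL* and *ELF3* the control points lie with SAM.

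DNA replication and mitosis genes were lower with SAM than with dCas9-VPR as a group. Of 36 members tested, 29 fell at an FDR below 0.05, or 80.6% against 6.32% of all genes, 0 rose, and none was past a fold change of 2. With median-of-ratios scaling 32 fell and 0 rose, against a background of 16.0%. The median log2 fold change of the list was -0.34, which is 0.44 below the median of all genes. Relative to the control, the median was -0.38 with SAM and -0.02 with dCas9-VPR, and -0.38 with CRISPR-DREAM. Single members with dCas9-VPR ranged from -0.295 for *CDT1* to 0.441 for *CENPF*. *MCM2* to *MCM7* were all below 0, from -0.244 for *MCM7* to -0.061 for *MCM2*, whereas *RRM2* was at 0.224.

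The largest falls were in mitotic regulators and a nucleotide synthesis enzyme, named after their values were seen. *KIF20A*, a kinesin of cytokinesis, was at 37.2 and 41.4 CPM with SAM, at 69.6 and 70 CPM with dCas9-VPR and at 70.1 and 69.2 CPM in the control (log2 fold change -0.82, SE 0.07, limma adjusted p = 1.23e-04). *PLK1*, a mitotic kinase, was at 109 and 105 CPM with SAM and at 165 and 172 CPM with dCas9-VPR, with the control at 158 and 164 CPM. In both cases the dCas9-VPR and control libraries were close together and the SAM libraries apart. *CDC20*, an activator of the anaphase-promoting complex, was at 108 and 102 CPM with SAM and at 160 and 164 CPM with dCas9-VPR. *RRM2*, a subunit of ribonucleotide reductase, was at 130 and 125 CPM with SAM, at 219 and 208 CPM with dCas9-VPR and at 183 CPM in both control libraries. *PIMREG*, a mitotic gene that is not on the list, was at 36 and 37.2 CPM with SAM and at 61.8 and 64.7 CPM with dCas9-VPR. *TOP2A*, the topoisomerase of chromosome segregation, was at 344 and 304 CPM against 481 and 453 CPM (log2 fold change -0.53, limma adjusted p = 0.0014). *MCM7*, a subunit of the replicative helicase, was at 632 and 635 CPM against 744 and 778 CPM (log2 fold change -0.26, limma adjusted p = 0.00213), and *BIRC5*, the chromosomal passenger protein survivin, was at 334 and 360 CPM against 438 and 453 CPM (log2 fold change -0.36, limma adjusted p = 0.00406). The control held 895 and 906 CPM of *MCM7* and 489 and 550 CPM of *BIRC5*, above both systems. For *TOP2A* it held 411 CPM in both libraries, between the systems. *CCNE1*, cyclin E1, also named after its values were seen, was the member with a positive value, at 17.2 and 17.7 CPM with SAM and at 14.8 and 15.1 CPM with dCas9-VPR (limma adjusted p = 0.0863).

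**Figure D4:**
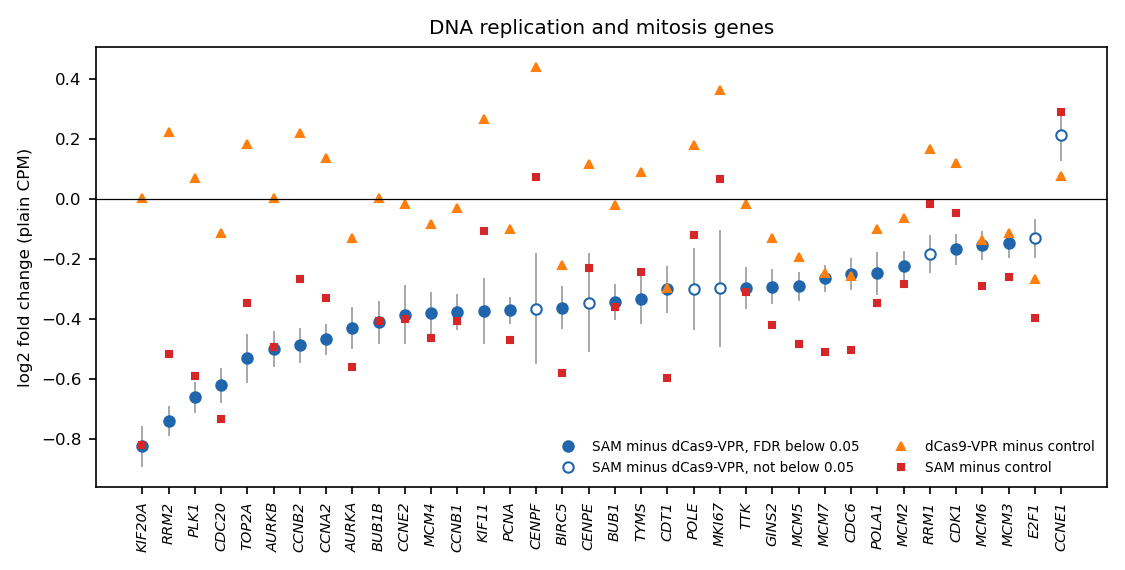
Log2 fold changes in plain CPM of the 36 DNA replication and mitosis genes, with SAM minus dCas9-VPR as circles with standard errors (filled where the FDR is below 0.05), dCas9-VPR minus control as triangles and SAM minus control as squares. The circles lie below 0 for 35 of the 36 genes. The triangles scatter on both sides of 0, from -0.295 for *CDT1* to 0.441 for *CENPF*.

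Promoter windows of RefSeq (GRCh38.p14), from 250 bases before to 50 bases after each start, were searched on both strands for letters known from cell cycle promoters. These were CCAAT, which reads ATTGG on the opposite strand, and the core TTTGAA, which reads TTCAAA on the opposite strand. A match of one can share 1 end base with a match of the other. Of the 36 list members, 30 matched a window by symbol, with 36 windows in all. CCAAT occurred in 30 of these 36 windows (83.3%) and in 34.6% of all 35116 windows, and 2 or more copies occurred in 50% against 10.8%. TTTGAA occurred in 30.6% against 15.2%. For the 955 genes lower with SAM at an FDR below 0.05, of which 768 matched, 48% of 1091 windows held CCAAT and 23.3% held 2 or more copies. TTTGAA occurred in 12.7% of these windows, below the 15.2% of all windows. The 35116 windows belong to 27305 symbols, not only to genes tested here, so the shares were not matched for expression. The 955 genes came from plain CPM and include the 29 list members that fell. Genes chosen with median-of-ratios scaling were not searched. A match is a description of letters and not evidence of a bound site. The windows of *CDC20*, *PLK1* and *KIF20A* are shown as examples, each read 5′ to 3′ on the strand of the gene with matches to either motif, on either strand, in capitals. *CDC20* and *PLK1* hold matches to both motifs, and *KIF20A* to CCAAT only.
*CDC20*, chr1:43358731-43359030, plus strand: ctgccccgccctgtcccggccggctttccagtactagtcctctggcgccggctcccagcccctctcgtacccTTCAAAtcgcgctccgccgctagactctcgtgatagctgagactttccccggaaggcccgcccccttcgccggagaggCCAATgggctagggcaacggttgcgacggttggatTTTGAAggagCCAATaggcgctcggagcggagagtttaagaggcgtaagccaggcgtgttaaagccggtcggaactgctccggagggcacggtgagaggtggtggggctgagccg
*PLK1*, chr16:23678639-23678938, plus strand: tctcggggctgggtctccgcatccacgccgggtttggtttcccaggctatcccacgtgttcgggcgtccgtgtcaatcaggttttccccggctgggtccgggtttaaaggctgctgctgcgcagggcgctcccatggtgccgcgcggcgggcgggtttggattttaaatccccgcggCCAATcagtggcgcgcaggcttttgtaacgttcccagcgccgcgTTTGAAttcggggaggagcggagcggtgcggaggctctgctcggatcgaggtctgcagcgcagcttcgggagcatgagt
*KIF20A*, chr5:138178862-138179161, plus strand: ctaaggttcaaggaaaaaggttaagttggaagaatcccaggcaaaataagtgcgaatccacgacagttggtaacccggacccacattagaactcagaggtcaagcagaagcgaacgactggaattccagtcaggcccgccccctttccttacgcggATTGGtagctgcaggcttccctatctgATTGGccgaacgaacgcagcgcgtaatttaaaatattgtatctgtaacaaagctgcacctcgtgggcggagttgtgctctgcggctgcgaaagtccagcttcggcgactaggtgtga

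Heat shock genes rose at a share close to that of all genes. Of 29 HSF1 targets and cytosolic chaperones tested, 8 rose (27.6%) and 4 fell (13.8%) at an FDR below 0.05, against 23.6% and 6.32% of all genes, and none was past a fold change of 2. With median-of-ratios scaling 6 rose and 6 fell, and the list median was 0.07 below that of all genes. *DNAJB4*, a co-chaperone, was at 34.7 and 35.1 CPM with SAM and at 22.2 and 21.6 CPM with dCas9-VPR, the widest rise on the list (log2 fold change 0.66, limma adjusted p = 6.68e-04). *HSPH1*, a nucleotide exchange factor for HSP70, was at 120 and 129 CPM against 88.7 and 87.6 CPM (log2 fold change 0.49), and *BAG3*, an HSP70 co-chaperone, was at 27.6 and 27.7 CPM against 19.9 and 19.6 CPM (log2 fold change 0.47). *DNAJB4*, *HSPH1* and *BAG3* were named after their values were seen. *DNAJB6* (0.585) and *DNAJA1* (0.549) rose by more than *HSPH1* and *BAG3*. The members with the highest levels were ubiquitin B and constitutive HSP70. *UBB* was at 2086 and 2169 CPM against 2432 and 2504 CPM (log2 fold change -0.22, limma adjusted p = 0.0162), and *HSPA8* was at 1137 and 1299 CPM against 1262 and 1275 CPM, with overlap (limma adjusted p = 0.559). The classical inducible genes *HSPA1A*, at 2.2 and 1.45 CPM against 2.06 and 1.88 CPM, and *DNAJB1*, at 138 and 156 CPM against 145 and 148 CPM, overlapped between the systems. Both were likewise named after their values were seen.

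*HSPA6*, a strictly inducible HSP70 gene that is not on the list and was named after its values were seen, was past the threshold. It was at 2.62 and 3.25 CPM with SAM, at 0.601 and 0.546 CPM with dCas9-VPR and at 0.893 and 0.878 CPM in the control (log2 fold change 1.67, SE 0.17, limma adjusted p = 2.59e-04). The heat shock element is built of inverted GAA units. It was searched as GAANNTTC and, in the other orientation of the units, as TTCNNGAA, each of which reads the same on both strands, and the 2 forms can overlap by 3 bases. One or both occurred in 21 of 42 windows (50%) of the 26 list members with a window and in 13.5% of all windows, those of untested genes included. Because members were listed as HSF1 targets, a high share can follow from how the list was made. It says nothing on SAM against dCas9-VPR. The *HSPA6* window is shown because it holds 3 matches, in capitals, of which 2 overlap.
*HSPA6*, chr1:161524290-161524589, plus strand: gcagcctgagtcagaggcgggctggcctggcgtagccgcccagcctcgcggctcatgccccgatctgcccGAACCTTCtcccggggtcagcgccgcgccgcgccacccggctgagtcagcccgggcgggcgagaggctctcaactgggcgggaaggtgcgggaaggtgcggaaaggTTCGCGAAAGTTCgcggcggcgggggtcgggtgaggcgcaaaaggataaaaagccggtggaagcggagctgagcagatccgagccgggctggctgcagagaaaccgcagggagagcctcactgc

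Targets of NF-kB, the factor whose p65 part both systems share, rose at a share near that of all genes. Of 21 tested, 4 rose (19%) and 3 fell (14.3%) at an FDR below 0.05, against 23.6% and 6.32% of all genes, or 3 and 4 with median-of-ratios scaling, and the list median was 0.02 above that of all genes. *BIRC3*, an inhibitor of apoptosis, was past the threshold at 1.26 and 1.65 CPM with SAM against 0.372 and 0.546 CPM with dCas9-VPR (log2 fold change 1.02, limma adjusted p = 0.00381), and at 0.94 with median-of-ratios scaling it was not. Outside the SAM group only 1 library reached 1 CPM of *BIRC3*, so the gene was tested only because it was high with SAM. Of 24 immediate early genes, 2 rose (8.33%) and 4 fell (16.7%), or 1 and 5 with median-of-ratios scaling. *JUN*, an AP-1 subunit, was at 198 and 154 CPM with SAM and at 271 and 258 CPM with dCas9-VPR (log2 fold change -0.60, limma adjusted p = 0.00284), whereas *ATF3*, a stress-induced factor of the ATF family, was at 165 and 162 CPM against 158 and 162 CPM, and did not pass the test (limma adjusted p = 0.689). Of 20 SRF/MRTF targets, *CCN2*, a matricellular growth factor, was past the threshold at 8.6 and 11.7 CPM with SAM and 2.63 and 3.08 CPM with dCas9-VPR (log2 fold change 1.65, limma adjusted p = 1.64e-04), while 4 others (20%) fell at an FDR below 0.05 with smaller changes, or 7 with median-of-ratios scaling.

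Stress lists had larger shares of members that fell than the 6.32% of all genes (16.0% with median-of-ratios scaling). Their shares that rose lay below the 23.6% of all genes, for the NRF2 list only slightly. Of 25 p53 targets, 4 rose (16%) and 5 fell (20%) in plain CPM, and 3 and 11 with median-of-ratios scaling. *CDKN1A*, the cell cycle inhibitor p21, named after its values were seen, was at 114 and 105 CPM with SAM, at 173 and 186 CPM with dCas9-VPR and at 153 and 154 CPM in the control (log2 fold change -0.71, limma adjusted p = 1.23e-04). *SESN2*, a stress sensor of the sestrin family, was at 293 and 273 CPM against 227 and 212 CPM (log2 fold change 0.37, limma adjusted p = 0.0091), and *CCNG1*, cyclin G1, was at 343 and 359 CPM against 366 and 377 CPM (limma adjusted p = 0.216). Of 26 ATF4 and unfolded protein response genes, 3 rose (11.5%) and 7 fell (26.9%), or 2 and 12 with median-of-ratios scaling. *ATF4* itself, at 969 and 997 CPM against 947 and 1002 CPM, overlapped between the systems, and *PHGDH*, of serine synthesis, was at 1113 and 1056 CPM against 1184 and 1155 CPM (limma adjusted p = 0.106). Of 19 NRF2 genes, 4 rose (21.1%) and 3 fell (15.8%), or 1 and 5 with median-of-ratios scaling. *HMOX1*, heme oxygenase 1, named after its values were seen, had the widest rise at 34.2 and 36.5 CPM with SAM, 18.2 and 19.3 CPM with dCas9-VPR and 28.3 and 27.2 CPM in the control (log2 fold change 0.89, limma adjusted p = 1.3e-04), and the abundant *FTH1* and *TKT* did not pass the test (limma adjusted p = 0.458 and 0.21).

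Sterol synthesis and glycolysis genes that passed the test were mostly lower with SAM. Of 29 sterol and fatty acid synthesis genes, 11 fell (37.9% against 6.32% of all genes) and 0 rose, with 17 and 0 by median-of-ratios scaling, and the median was 0.23 below that of all genes. *SCD*, the stearoyl-CoA desaturase, was at 472 and 450 CPM against 546 and 564 CPM (log2 fold change -0.27, limma adjusted p = 0.00796), whereas *ACLY*, ATP citrate lyase, overlapped at 375 and 410 CPM against 383 and 398 CPM. Of 29 glycolysis and hypoxia genes, 10 fell (34.5%, against 6.32% of all genes) and 2 rose (6.9%, against 23.6%), with 15 and 0 by median-of-ratios scaling, where 16.0% of all genes fell. *GAPDH* was at 1959 and 1840 CPM with SAM and at 2317 and 2300 CPM with dCas9-VPR (log2 fold change -0.28, limma adjusted p = 0.00235), and *ENO1*, enolase 1, at 1942 and 2095 CPM against 2235 and 2410 CPM (log2 fold change -0.20, limma adjusted p = 0.0265).

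In large protein complexes no member passed a fold change of 2. For 3 of the lists the balance of rises and falls depended on the scaling. Of 77 mitochondrial ribosomal protein genes, 26 rose (33.8%, against 23.6% of all genes) and 1 fell in plain CPM, but 10 and 7 with median-of-ratios scaling. Of 35 proteasome genes the counts were 11 (31.4%) and 0, and 3 and 4 after scaling, and of 71 Mediator and coactivator genes they were 17 (23.9%) and 1, and 7 and 9. Medians of these 3 lists lay within 0.03 of that of all genes. For 2 lists, falls outnumbered rises in both scalings. With median-of-ratios scaling their median log2 fold changes were -0.154 (cytosolic ribosomal proteins) and -0.134 (nuclear-encoded respiratory chain). All genes at 100 CPM and above had a median of -0.135 in that scaling. Of 85 cytosolic ribosomal protein genes, 1 rose (1.18%, against 23.6% of all genes) and 7 fell (8.24%, against 6.32%), or 0 and 20 with median-of-ratios scaling, and *RPS2* was at 7823 and 7255 CPM with SAM against 8769 and 8819 CPM with dCas9-VPR (log2 fold change -0.22, limma adjusted p = 0.00779). For *RPLP0* (5400 and 5759 CPM against 5666 and 6000 CPM) the groups overlapped. Of 77 nuclear-encoded respiratory chain genes, 6 rose (7.79%) and 12 fell (15.6%), or 2 and 23 with median-of-ratios scaling, and of the 13 subunits encoded in mitochondrial DNA 0 passed the test in either direction. *MT-CO1* was at 4486 and 3968 CPM with SAM and at 4504 and 5561 CPM with dCas9-VPR, a spread between replicates as wide as the difference between systems. In the remaining complexes the most abundant members, *PSMB4*, *PSMB1*, *MRPL37*, *MRPL12*, *ATP5F1B*, *ATP5F1A*, *MT-CO3*, *SSRP1* and *NCOA4*, did not pass the test in plain CPM.

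**Figure D5:**
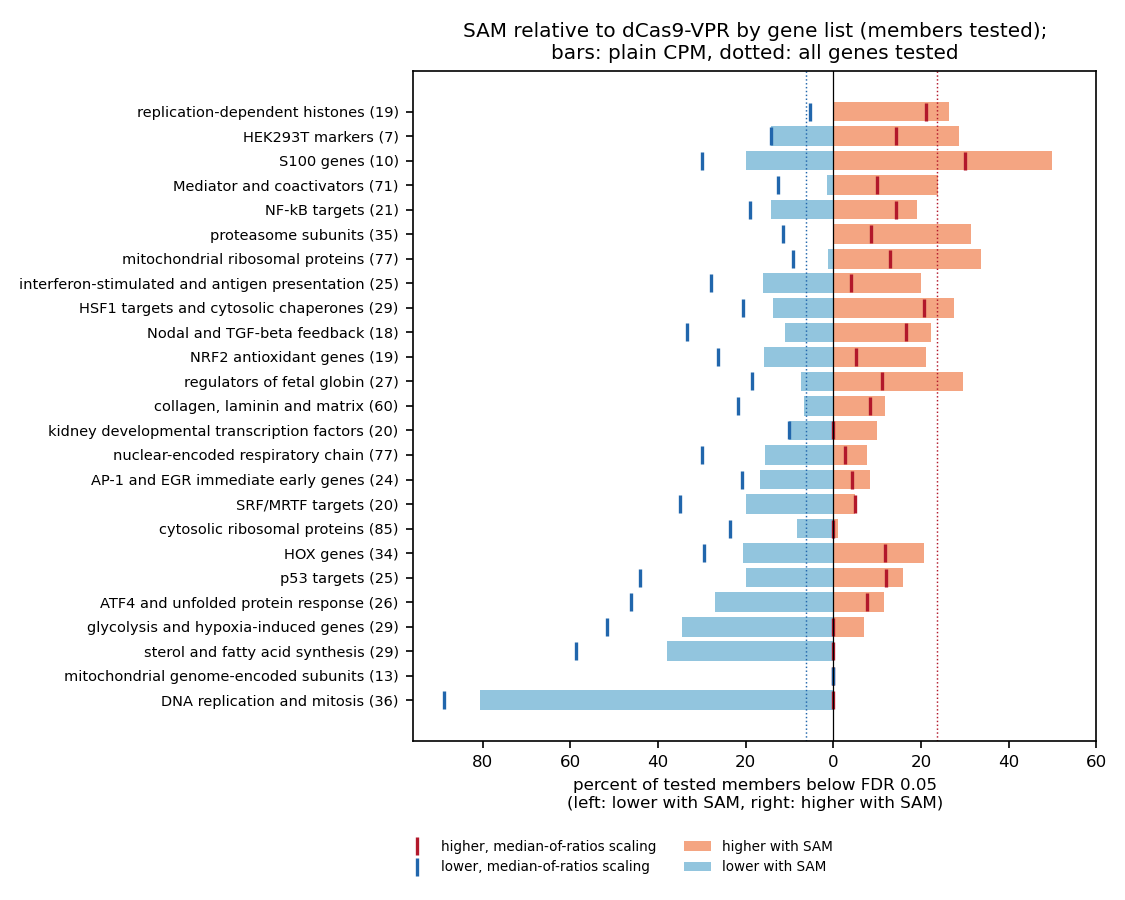
Percent of each list's tested members below an FDR of 0.05, lower with SAM to the left and higher to the right, as bars in plain CPM and ticks with median-of-ratios scaling, with all genes tested in plain CPM as dotted lines. DNA replication and mitosis genes reach 80.6% on the low side, and sterol and fatty acid synthesis genes 37.9%, with no member higher in either list.

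Histone, immune and signalling lists held single genes past the threshold. Of 19 replication-dependent histone genes tested of 37 in the files, *H4C8*, *H3C6* and *H2AC6* rose past a fold change of 2 with both scalings, and at an FDR below 0.05 alone 5 rose (26.3%, against 23.6% of all genes) and 0 fell, or 4 and 1 with median-of-ratios scaling. *H3C6* was at 16.8 and 20.3 CPM with SAM and at 4.75 and 6.42 CPM with dCas9-VPR (log2 fold change 1.66, limma adjusted p = 1.64e-04), *H2AC6* at 10.3 and 13.4 CPM against 4.61 and 5.2 CPM, and *H4C8* at 3.32 and 5.71 CPM against 0.601 and 0.674 CPM. Of 25 interferon-stimulated and antigen presentation genes, 5 rose (20%) and 4 fell (16%, against 6.32% of all genes), or 1 and 7 with median-of-ratios scaling, with *BST2* the one past the threshold and *PSMB8*, an immunoproteasome subunit, at 1.46 and 2.16 CPM against 0.687 and 0.733 CPM (log2 fold change 0.92, limma adjusted p = 0.00977). *PSMB8* was named after its values were seen. Outside the SAM group only 1 library reached 1 CPM of *PSMB8*, so the gene was tested only through SAM. Of 18 Nodal and TGF-beta feedback genes, 4 rose (22.2%, against 23.6% of all genes) and 2 fell (11.1%), or 3 and 6 with median-of-ratios scaling. *LEFTY2*, an inhibitor of Nodal signalling, was past the threshold, at 7.4 and 8.51 CPM with SAM, at 3.66 and 3.04 CPM with dCas9-VPR and at 0.313 and 0.412 CPM in the control (log2 fold change 1.14, limma adjusted p = 0.00116). Both systems thus lay above the control, SAM further than dCas9-VPR. Of 10 calcium-binding S100 genes tested, 5 rose (50%, against 23.6% of all genes) and 2 fell (20%, against 6.32%), or 3 and 3 with median-of-ratios scaling. These counts are of members that passed the filter on low values. *S100Z* was at 1.54 and 1.71 CPM with SAM against 0.515 and 0.546 CPM (log2 fold change 1.04, limma adjusted p = 0.00235). It reached 1 CPM in no other group, so it was tested only because it was high with SAM. *S100A1*, named after its values were seen, was at 4.79 and 6.11 CPM with SAM, at 10.7 and 11.1 CPM with dCas9-VPR and at 1.12 and 1.18 CPM in the control. The *S100A1* log2 fold change of -0.95 (limma adjusted p = 0.0023) was short of a fold change of 2, and at -1.07 with median-of-ratios scaling it was past it.

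Developmental and globin regulators had no member past the threshold. Of 27 regulators of fetal globin, 8 rose (29.6%, against 23.6% of all genes) and 2 fell (7.41%, against 6.32%) in plain CPM, shares near those of all genes, and 3 and 5 with median-of-ratios scaling. *RBBP4*, a chromatin-binding subunit of the NuRD complex, was at 343 and 346 CPM with SAM against 404 and 393 CPM (log2 fold change -0.21, limma adjusted p = 0.00556), and the histone deacetylase *HDAC2* was at 336 and 335 CPM against 290 and 296 CPM (log2 fold change 0.20, limma adjusted p = 0.016). After median-of-ratios scaling the *HDAC2* value was 0.07. Of 34 HOX genes, 7 rose (20.6%) and 7 fell (20.6%, against 6.32% of all genes), or 4 and 10 with median-of-ratios scaling, with *HOXD13* at 81.2 and 84.7 CPM against 94.5 and 100 CPM (limma adjusted p = 0.027) and *HOXB9* at 118 and 117 CPM against 122 and 129 CPM (limma adjusted p = 0.307). Of 20 kidney developmental transcription factors, 2 rose (10%) and 2 fell (10%), or 0 and 2 with median-of-ratios scaling, among them *FOXC1* at 67.3 and 52.9 CPM against 87.5 and 81.3 CPM (log2 fold change -0.50, limma adjusted p = 0.00968), whereas *HOXA11* overlapped.

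Markers of other cell types that passed the test were below 10 CPM in all 4 libraries. Both endothelial markers tested were past the threshold, 1 of them tested only through the SAM libraries. *KDR*, a VEGF receptor, was at 2.69 and 2.9 CPM with SAM against 0.687 and 0.802 CPM with dCas9-VPR. *PECAM1*, an adhesion protein of endothelial junctions, was at 1.03 and 1.17 CPM with SAM against 0.0573 and 0.0322 CPM with dCas9-VPR, the latter below 3 reads. It reached 1 CPM in the SAM libraries alone and had to be high there to be tested. *LUM*, a fibroblast proteoglycan, was at 2.77 and 4.38 CPM with SAM against 0.601 and 0.931 CPM, the 1 of 3 tested fibroblast markers past the threshold. *CD68*, a lysosomal protein used as a macrophage marker, was lower with SAM at 2.93 and 3.06 CPM than with dCas9-VPR at 5.62 and 4.74 CPM (log2 fold change -0.70, limma adjusted p = 0.0293), and the other 2 leukocyte markers tested did not pass the test. None of the hepatocyte markers passed the filter on low values. The part of other cell types in these differences was not tested. Erythroid *EPOR*, at 18.3 to 21.2 CPM, and *HBA1*, at 0.687 to 1.00 CPM, overlapped between the systems. Of 60 collagen, laminin and matrix genes, 7 rose (11.7%, against 23.6% of all genes) and 4 fell (6.67%, against 6.32%), or 5 and 13 with median-of-ratios scaling, and *MMP28*, a matrix metalloproteinase, was at 3.6 and 5.03 CPM with SAM against 0.83 and 1.12 CPM (log2 fold change 1.70, limma adjusted p = 5.58e-04). Of 3 clustered protocadherins tested, *PCDHGA11* was at 3.79 and 2.41 CPM against 5.65 and 5.69 CPM (log2 fold change -0.81, limma adjusted p = 0.0204). The HEK293T marker *VIM*, vimentin, was at 330 and 276 CPM with SAM and at 440 and 411 CPM with dCas9-VPR (log2 fold change -0.49, limma adjusted p = 0.00709), whereas the HEK293T markers *INA* and *PAX2*, named after their values were seen, rose. *INA*, a neuronal intermediate filament gene, was at 31.7 and 30.2 CPM against 23.3 and 20.5 CPM (log2 fold change 0.49, limma adjusted p = 0.0025), and *PAX2*, a kidney developmental factor, was at 1.43 and 1.73 CPM against 1.00 and 0.802 CPM (log2 fold change 0.57, limma adjusted p = 0.0379, or 0.0778 with median-of-ratios scaling). Of the 7 HEK293T markers tested, 2 rose (28.6%, against 23.6% of all genes) and 1 fell (14.3%, against 6.32%), or 1 and 1 with median-of-ratios scaling. *NEFL* overlapped at 47.8 and 40.7 CPM against 41.9 and 38.1 CPM.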

How the data were processed

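The series holds 8 RNA-seq libraries of HEK293T cells in 4 groups. The authors mapped paired 75-base reads to hg38 (Gencode release 36) with STAR and estimated transcript levels by a Bayesian method. The submitters' processing notes name STAR 2.7.3a and DESeq2 3.5. The labels give polyA RNA and the methods a total RNA kit. The deposited values are CPM for 19770 genes, with 0.0001 added to each value, and a gene at this offset is called listed at 0. How the deposited genes were chosen is not given in the sources used here. The smallest steps between CPM values gave depths of 28.5 to 35.2 M reads (M, 1e6). Only 62.6% to 67.2% of values below 0.6 CPM came out as whole reads (tolerance 0.02 of a read), so counts were not recovered and no count model was run.

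Genes reaching 1 CPM in 2 or more of the 8 libraries were tested. One limma model (version 3.58.1, R 4.3.3, with its trend and robust settings) covered all 4 groups on log2(CPM + 0.5). Fold changes of low genes are understated by the added 0.5. P-values were adjusted by Benjamini-Hochberg over 15122 genes, and the threshold was a fold change above 2 with an FDR below 0.05. For 2 libraries against 2, the smallest two-sided p of an exact permutation test is 0.333, so limma, which pools the spread across genes, was used. CPM values were also divided by median-of-ratios factors. The fit was also run on simulated data, with an outcome that is not reported here.

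Genes named were those of the targeted locus and effector parts, the 12 with the largest change in each direction past the threshold in both scalings at 3 CPM or more, and for each of 31 lists up to 4 members past the threshold or, where none was, the 2 with the highest mean. The members and lists were chosen with earlier results of these data known, and other genes are said to be named after their values were seen. *HBB* and *HBD* are not analysed here. Positions are those in the authors' files, exonic lengths come from Gencode release 44 by symbol, and tables were made with Python 3.11.15 and pandas 2.3.3. Alternatives were other pseudocounts, filters, scalings and thresholds, a fit on the 4 libraries alone, a replicate block and leaving out each library.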

Additional observations from a re-analysis of the deposited data

How the results depend on the processing

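Under other scalings, pseudocounts, filters, the fit on 4 libraries and the replicate block, *HBG2*, *HBG1*, their sum and *HSF1* stayed higher with SAM and past the threshold, with log2 fold changes of 1.76 to 1.89, 1.42 to 2.43, 1.76 to 1.90 and 4.29 to 4.43, and 1.75 to 2.03, 1.67 to 1.99, 1.75 to 2.04 and 4.38 to 4.45 when 1 library was left out. Tested gene by gene against a fold change of 2, an alternative chosen after seeing the data, *HSF1* passed (adjusted p = 1.69e-09), but *HBG2* (log2 1.89, adjusted p = 0.304), *HBG1* (1.83, 0.994) and their sum (1.89, 0.292) did not. *HBG1* could not be fitted under the filter of 10 CPM. Of 35 named genes past the threshold, 32 stayed past it with median-of-ratios scaling (*BIRC3* and *S100Z* were among those that did not), 27 with a pseudocount of 1, and 30 to 33 when 1 library was left out.

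The count of 348 genes past the threshold, 342 higher and 6 lower, became 580 (567 and 13) with a pseudocount of 0.1, 184 (183 and 1) with a pseudocount of 1, and 42 (40 and 2) with a filter of 10 CPM, where 10183 genes were tested. It was 4520 (3565 and 955) with no fold change threshold, 1330 (1245 and 85) above a fold change of 1.5, and 6 (6 and 0) when tested against a fold change of 2. Median-of-ratios scaling gave 11 lower. Leaving out 1 library gave 297 to 452 in all and 5 to 14 lower, the 14 without SAM replicate 1. A DESeq2 fit was not run because the values are not counts.

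Same-numbered SAM and dCas9-VPR libraries deviated together (correlation 0.326 across 15122 genes). The correlation was positive for every pair of the 4 groups, and lowest at 0.133 for the control with dCas9-VPR. No label says that a number marks a shared batch, and 2 numbers are too few to establish pairing. The replicate block gave 349 genes past the threshold and 6895 in place of 4520 at an FDR below 0.05, and changed no call of a named gene.

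With median-of-ratios scaling 6 small values changed sign, *ATF3* to -0.10, *ATF4* to -0.12, *ACLY* to -0.12, *EPOR* to -0.052, *NCOA4* to -0.003 and *DNAJB1* to -0.13, and none of them passed the test. Leaving out 1 library moved uncalled values across 0 for *HBE1* (-0.015 to 0.60), *HSPA8* (-0.16 to 0.034), *ATF4* (-0.027 to 0.054), *ACLY* (-0.056 to 0.070), *MRPL37* (-0.077 to 0.027), *MRPL12* (-0.028 to 0.016), *FTH1* (-0.24 to 0.037), *HOXA11* (-0.11 to 0.023), *EPOR* (-0.024 to 0.17), *HSPA1A* (-0.34 to 0.13) and *DNAJB1* (-0.085 to 0.088).

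List medians relative to all genes moved by more than the replicate spread under the filter of 10 CPM, to -0.025 for HSF1 targets, -0.22 for immediate early genes, -0.20 for sterol and fatty acid synthesis, -0.41 for DNA replication and mitosis, 0.38 for histones, -0.13 for interferon genes, -0.054 for S100 genes, -0.053 for fetal globin regulators and 0.06 for Mediator genes. Leaving out 1 library gave -0.48 to -0.41 for DNA replication and mitosis, -0.26 to -0.23 for sterol and fatty acid synthesis, -0.29 to -0.17 for glycolysis and hypoxia, -0.094 to -0.008 for HSF1 targets, -0.004 to 0.027 for NF-kB targets, -0.23 to -0.064 for immediate early genes, -0.012 to 0.056 for proteasome, -0.073 to 0.12 for interferon genes, -0.14 to -0.081 for SRF/MRTF targets, -0.024 to 0.12 for S100 genes, -0.16 to -0.063 for kidney factors, -0.22 to -0.039 for HOX genes, -0.080 to -0.035 for fetal globin regulators, -0.057 to 0.038 for Mediator genes and -0.031 to 0.20 for leukocyte markers. The cause of these shifts was not tested.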
